A study of Mus musculus with 288 samples.

Results

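The proteasome subunit genes were followed in single mouse embryonic stem cells as they left the naive state. The members are the genes of the deposited count table whose symbol starts with Psma, Psmb, Psmc, Psmd, Psme, Psmf or Psmg followed by a number, without names ending in a pseudogene mark. They are 50 of the 54232 genes listed, and 4 such pseudogene names were left aside. The E14 cells, a line of mouse embryonic stem cells, were kept long term in 2i + LIF, in which the inhibitors CHIR99021 and PD0325901 and the cytokine LIF hold cells in a naive state of low DNA methylation. They were then moved into medium with serum and LIF, without the inhibitors. Single cells were dissociated with accutase, sorted by flow cytometry into 96 wells per time point and processed by scNMT-seq, which reads methylation, accessibility and polyadenylated RNA from the same cell. Only the RNA counts were used here. D0 cells came from 2i + LIF at 0 h, D1 cells from serum + LIF at 24 h and D2 cells from serum + LIF at 48 h. All groups are labelled as the same line with no genetic change stated, each is 1 plate, and no label names a second culture of any time point. The effect of time thus cannot be told apart from that of the plate, the spread over cells is not one over cultures, and differences between groups are given without a test.

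The proteasome degrades proteins that carry ubiquitin chains. Its 20S core is a barrel of alpha rings, which gate the entrance, around beta rings, which hold the active sites, and the 19S cap recognises ubiquitin, removes it and unfolds the substrate with a ring of ATPases. In cells exposed to interferon the catalytic beta subunits are replaced by Psmb8, Psmb9 and Psmb10, which form the immunoproteasome, and embryonic stem cells are known for high proteasome activity. Of the 50 members, 14 encode constitutive 20S subunits, 17 constitutive 19S subunits, 3 the immunoproteasome subunits and 2 tissue-specific 20S subunits. A further 7 encode assembly chaperones, 5 activators and 1 the regulator PI31, while Psmc3ip, a meiotic recombination factor that shares only the start of its name, is not a subunit.

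One sequence feature bears on the values of Psmb5, the catalytic subunit with chymotrypsin-like activity, and is shown first. Psmb5 lies on chr14:54614119-54618022, minus strand, GRCm38. Its processed pseudogene Gm3375, a copy without introns, lies at chr7:3181093-3181888 on the plus strand. The transcripts were identical at 98.9% of 796 aligned bases, with 8 mismatches, all in the 792 coding bases of Psmb5. The stretch of 180 bases with the most mismatches is given below for both, 5′ to 3′, as bases 317 to 496 of the GENCODE Psmb5 transcript and as chr7:3181379-3181558 of Gm3375, with the 5 bases that differ in capitals.
Psmb5: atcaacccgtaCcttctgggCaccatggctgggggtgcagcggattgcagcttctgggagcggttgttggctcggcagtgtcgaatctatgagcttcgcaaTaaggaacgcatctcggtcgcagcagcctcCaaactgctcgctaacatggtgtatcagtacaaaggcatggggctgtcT
Gm3375: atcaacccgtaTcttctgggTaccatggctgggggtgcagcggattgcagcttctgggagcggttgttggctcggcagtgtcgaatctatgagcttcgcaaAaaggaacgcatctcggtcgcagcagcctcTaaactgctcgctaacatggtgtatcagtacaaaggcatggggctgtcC
Reads that cover none of the differing bases fit both places equally well.

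Promoter letters were compared for the members with a RefSeq promoter of GRCm38.p6, which runs from 250 bases before to 50 bases after the start. Such a window was found for 42 of 50 members and for 25 of the 31 constitutive subunits. The ETS motif CCGGAAGT, searched on both strands like all motifs here, was found in 6 of these 25 genes (24%), Psma6, Psmc1, Psmc2, Psmd6, Psmd12 and Psmd13, against 4.31% of 27025 genes. The CCAAT box, CCAAT, was found in 40% against 41.1% of all genes. The core of the antioxidant response element, TGACNNNGC, which the stress factors Nfe2l1 and Nfe2l2 are known to bind, was found in 16% against 13.99% of all genes, in Psmb5, Psmb6, Psmc6 and Psmd12. The core of the interferon-stimulated response element was found in 8% against 3.99%, in none of the 3 immunoproteasome genes. The STAT motif TTCNNNGAA, which reads the same on both strands, was found in 4% against 9.55%. Motifs were counted without regard to overlap between them. The 110 bases before the start are shown for 4 of the 19S genes with the ETS motif and for the 3 immunoproteasome genes, 5′ to 3′ on the strand of the gene, with the ETS motif, the STAT motif of Psmb8 and the CCAAT box of Psmb9 in capitals.
Psmc1, chr12:100110092-100110201, plus strand: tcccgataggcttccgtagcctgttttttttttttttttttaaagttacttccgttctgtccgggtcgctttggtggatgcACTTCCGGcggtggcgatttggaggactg
Psmc2, chr5:21785165-21785274, plus strand: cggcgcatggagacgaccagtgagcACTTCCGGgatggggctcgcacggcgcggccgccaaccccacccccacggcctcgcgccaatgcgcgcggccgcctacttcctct
Psmd12, chr11:107479418-107479527, plus strand: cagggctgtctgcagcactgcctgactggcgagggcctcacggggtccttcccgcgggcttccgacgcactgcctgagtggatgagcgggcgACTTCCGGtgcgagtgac
Psmd6, chr14:14120946-14121055, minus strand: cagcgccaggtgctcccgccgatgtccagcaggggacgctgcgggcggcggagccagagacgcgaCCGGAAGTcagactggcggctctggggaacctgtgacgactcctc
Psmb8, chr17:34198085-34198194, plus strand: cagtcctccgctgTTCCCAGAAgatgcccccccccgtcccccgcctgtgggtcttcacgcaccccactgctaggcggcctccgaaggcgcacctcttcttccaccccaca
Psmb9, chr17:34187331-34187440, minus strand: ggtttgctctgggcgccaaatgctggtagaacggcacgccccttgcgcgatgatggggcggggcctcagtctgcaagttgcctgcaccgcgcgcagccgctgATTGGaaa
Psmb10, chr8:105938393-105938502, minus strand: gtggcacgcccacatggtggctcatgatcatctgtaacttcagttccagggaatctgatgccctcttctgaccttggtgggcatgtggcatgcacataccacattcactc
The ETS matches lie 29 bases before the start of Psmc1, 85 before that of Psmc2, 18 before that of Psmd12 and 45 before that of Psmd6. Psmb10 held none of the 5 motifs in its window. A match describes letters only.

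Cells were kept with over 200000 reads, over 2000 detected genes and a mitochondrial share of reads under 0.15. This left 90 D0 cells, 50 D1 cells and 93 D2 cells, 233 of 288 wells. The reads per cell ran from 202157 to 43336922, with medians of 1610760 for D0, 7956160 for D1 and 2162090 for D2. D2 cells held fewer genes, a median of 4744 against 9002 in D0 and 10676 in D1, and 3948 against 7797 and 8026 with every cell thinned to 200000 reads. Counts were scaled to CPM, counts per 1e6 reads of the cell. The 8 embryonic stem cell markers summed to 5208 ± 1848, 6749.8 ± 2774 and 10911 ± 6575 CPM in D0, D1 and D2 (mean ± SD over cells), and none of these 8 was listed at 0 in any group. Dppa5a, with means of 2680, 4483 and 6841 CPM, gave much of that sum. Single markers went both ways, 3 higher and 3 lower past 1.5-fold in D1 and 4 higher and 3 lower in D2, with Nanog at log2 ratios over D0 of -2.86 for D1 and -0.87 for D2 and Esrrb at -2.16 for D1 and -0.61 for D2. The 5 primitive endoderm markers summed to at most 3.22 CPM on average and the 5 fibroblast markers to at most 3.68. The 5 trophectoderm markers summed to 37.1 ± 44.4, 15.7 ± 34.2 and 12.6 ± 47.97 CPM in the same order, of which Tfap2c alone gave 29.99, 6.995 and 12.1. Of 4 haematopoietic markers, Lyz2 was listed at 0 in all cells, Ptprc had reads in 1 cell, Cd3e had reads in 18 D0, 32 D1 and 7 D2 cells with means of at most 5.93 CPM, and Cd68 had means of 14.6 ± 44.7, 68.1 ± 134 and 9.83 ± 40.4 CPM. The part of these markers in the results was not tested.

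On the plate labelled D1, 46 of 96 wells failed the filter, against 6 on that of D0 and 3 on that of D2. The D1 plate also stood apart in 3 further ways that bear on its values. Hprt, the purine salvage enzyme, had reads in 48 of 50 D1 cells but in 9 of 90 D0 cells and 7 of 93 D2 cells. A set of 4 Y-linked genes (Uty, Kdm5d, Ddx3y and Eif2s3y) had reads in 48 D1 cells, 3 D0 cells and 5 D2 cells. The third is the share of reads on the pseudogene of Psmb5, described with that gene. All 3 plates carry the same source label. The study traces its E14 line to cells known for a lack of Hprt, so the Hprt reads of 48 D1 cells go against that label. A difference between lines and the effect of 24 h in serum cannot be told apart in D1, and every D1 value below is that of the library labelled D1. D2 over D0 does not use it.

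A gene was compared when its mean was at least 10 CPM in either group, and is called higher or lower where the ratio of mean CPM over D0 was past 1.5-fold, with no test. All ratios below are log2 ratios of mean CPM over D0. In D1, 17 of the 47 members compared were higher, 1 was lower and 29 lay between, where 20.7% of 9447 genes were higher and 44% lower. In D2, 28 of 47 were higher, 2 lower and 17 between, where 27.2% of 9548 genes were higher and 39.5% lower. By the median over cells in place of the mean, 17 members were higher and 9 lower in D2, and shares over all genes were not computed by the median. Psmb8, Psmb9 and Psmb11 were too low to be compared. Over all genes compared the median ratio was -0.40 for D1 and -0.19 for D2, against medians of 0.44 and 0.67 over the members. The comparisons share the D0 cells. With reads summed over cells, TMM factors gave 29 higher and 0 lower in D1 and 37 higher and 1 lower in D2. These factors move every gene, by 0.21 in D1 and 0.28 in D2, and shares over all genes were not computed with them.

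**Figure D1:**
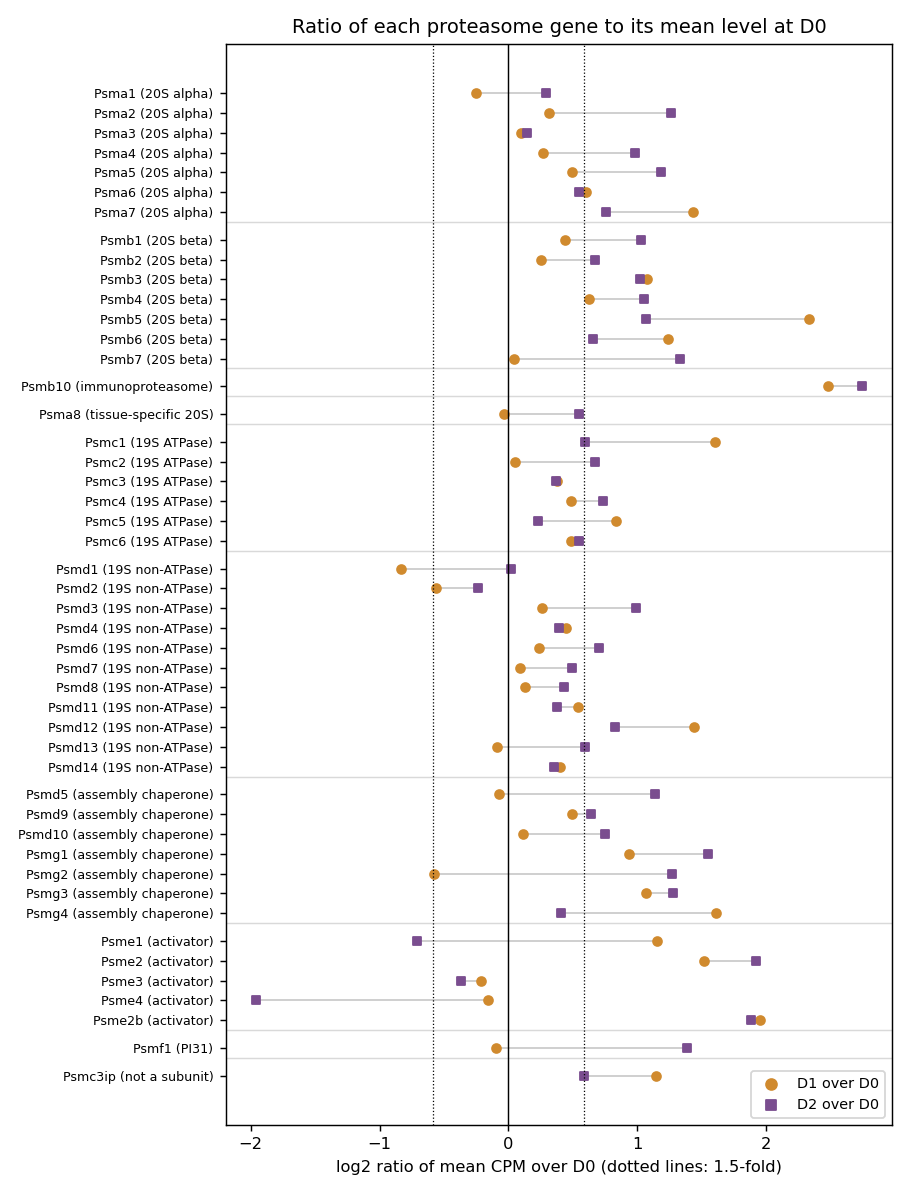
Log2 ratio of mean CPM over D0 for each of the 47 members compared, with D1 as circles and D2 as squares, ordered by role, and dotted lines at 1.5-fold. Most points lie to the right of 0, with Psmb10 farthest right and Psme4 in D2 farthest left.

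The constitutive genes together took a larger mean share of the reads in D1 and D2 than in D0. The 31 constitutive 20S and 19S genes summed per cell to 6613 CPM in the lowest, 11932 in the median and 31850.3 in the highest D0 cell. The same values were 10814, 16975 and 21944 CPM in D1, and 12725, 18274 and 31530.3 CPM in D2. The ranges overlapped, but 48 of 50 D1 cells and 93 of 93 D2 cells lay above the D0 median. The ratio of the means was 0.48 for D1 and 0.65 for D2, that is 1.39-fold and 1.57-fold. Of the 31 genes, 9 were higher and 1 lower in D1 and 18 were higher and none lower in D2 (at 2-fold, 6 were higher in D1 and 7 in D2 and none lower, where 13.2% and 15.8% of all genes compared were higher and 31% and 29.3% lower). The mean was above that of D0 for 27 of 31 genes in D1 and 30 of 31 in D2, against 37.2% and 44.6% of all genes compared.

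The 20S core took the larger part of the difference. The 14 constitutive 20S genes had summed means of 6397 ± 2495, 9679 ± 1885 and 11264 ± 2587 CPM, with ratios of 0.60 for D1 and 0.82 for D2. Of these, 6 of 14 (42.9%) were higher in D1 and 11 of 14 (78.6%) in D2, against 20.7% and 27.2% of all genes. The 17 19S genes had summed means of 5497 ± 1131, 6898 ± 1097 and 7411 ± 1741 CPM, ratios of 0.33 for D1 and 0.43 for D2, and 3 of 17 (17.6%) were higher in D1 and 7 of 17 (41.2%) in D2. The D1 share was below the 20.7% of all genes. One D0 cell lay far above the rest of its group, with a 20S sum of 25729.9 CPM against a D0 median of 6324.

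**Figure D2:**
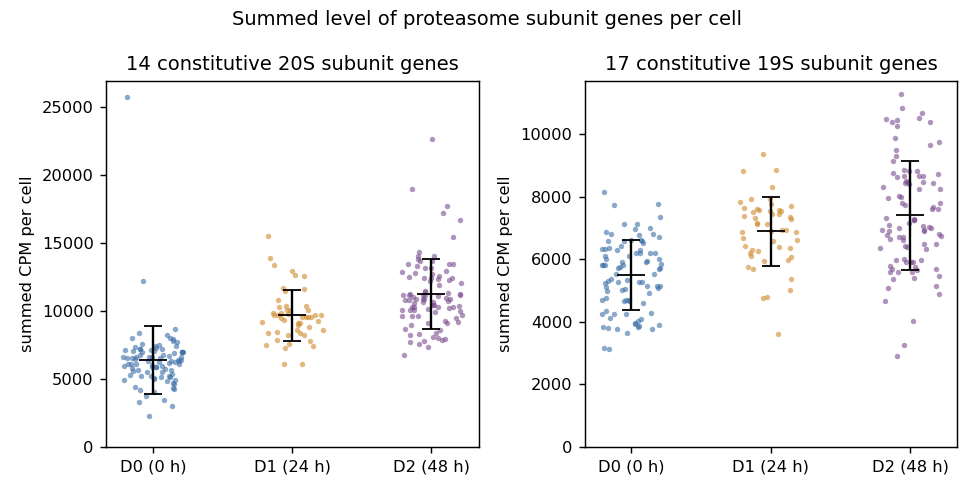
Summed CPM per cell of the 14 constitutive 20S genes (left) and the 17 19S genes (right) in D0, D1 and D2, 1 point a cell, with the mean and SD over cells in black. The D1 and D2 means lie above D0 in both panels, and the cells of the 3 groups overlap.

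The alpha ring genes encode the gate of the barrel and the surface on which the 19S cap docks. Their sum had ratios of 0.38 for D1 and 0.74 for D2, with 2 of 7 higher in D1 (Psma6 and Psma7) and 4 of 7 in D2 (Psma2, Psma4, Psma5 and Psma7). These shares were 28.6% and 57.1%, against 20.7% and 27.2% of all genes. Psma7 ran from 28.9 to 1171 CPM around a median of 311 in D0, from 283 to 3138 around 753 in D1 and from 3.86 to 2279 around 521 in D2. It was the alpha gene with the highest ratio in D1, 1.43, with 49 of 50 D1 cells above the D0 median, and its ratio in D2 was 0.76. Psma2 ran from 208 to 4357 CPM around a median of 666 in D0, from 0 to 1466 around 803 in D1 and from 356 to 4034 around 1558 in D2. Its order was the other way, with ratios of 0.31 for D1 and 1.26 for D2 and 89 of 93 D2 cells above the D0 median. Psma5 had a similar pair of ratios, 0.49 for D1 and 1.18 for D2. Psma1, with the lowest ratio of the 7 in D1, ran from 195 to 1667 CPM around a median of 652 in D0, from 5.71 to 1620.2 around 530.0 in D1 and from 0 to 3723 around 707 in D2. Its ratios, -0.25 for D1 and 0.29 for D2, lay inside 1.5-fold in both comparisons. Psma3, with the lowest ratio of the 7 in D2, ran from 0 to 2904 CPM around a median of 844 in D0, from 0 to 2059 around 937 in D1 and from 343 to 3399.7 around 878 in D2, with ratios of 0.10 for D1 and 0.15 for D2.

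Of the beta ring genes, 7 of 7 were higher in D2 and 4 of 7 (57.1%) in D1, against 27.2% and 20.7% of all genes. At their lowest under the alternatives, the D2 ratios of Psmb6 and Psmb2 were 0.42 and 0.54, inside 1.5-fold. The sum of the 7 beta genes had ratios of 0.86 for D1 and 0.92 for D2, with 50 of 50 D1 cells and 91 of 93 D2 cells above the D0 median. Psmb3, a structural subunit of the ring, had ratios of 1.08 for D1 and 1.02 for D2, and Psmb1 and Psmb4, also structural, had ratios of 0.44 and 0.62 in D1 and 1.03 and 1.06 in D2. Psmb4 lost its call in D1 without the filter on cells, at -0.0042, and also lay inside 1.5-fold on plate columns 1 to 6 and by the median over cells.

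The 3 constitutive catalytic genes differed from each other in their D1 and D2 ratios. Psmb6, with caspase-like activity, had a lowest, median and highest cell of 123, 502 and 8985 CPM in D0, 567, 1426 and 3329 CPM in D1 and 140.3, 955 and 2984 CPM in D2. All 50 D1 cells lay above the D0 median, and the ratios were 1.24 for D1 and 0.65 for D2. The highest Psmb6 value of all, 8985 CPM, belonged to a D0 cell. Psmb7, with trypsin-like activity, shares 255 bases with its neighbour Nek6, so reads there cannot be told apart, and Nek6 had means of 28.5, 28.6 and 73.7 CPM in D0, D1 and D2. Psmb7 ran from 0 to 255 CPM around a median of 132 in D0, from 33.1 to 295 around 131 in D1 and from 72.1 to 1148 around 305 in D2. D1 cells lay around nearly the same median, with 25 of 50 above that of D0, whereas 91 of 93 D2 cells lay above it and 62 lay above the highest D0 cell. The ratios of Psmb7 were 0.04 for D1 and 1.33 for D2.

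Psmb5 had the highest ratio of the constitutive genes in D1, and this is the value that its copy changes most. On its own entry it ran from 0 to 164 CPM around a median of 64.97 in D0, from 25.1 to 722 around 308 in D1 and from 0 to 369 around 144 in D2. The ratios were 2.33 for D1 and 1.07 for D2, 5.03-fold and 2.09-fold, and 46 of 50 D1 cells lay above the highest D0 cell. Gm3375 took 49.6% of the summed mean CPM of both in D0 and 53.2% in D2, but 3.61% in D1. Per cell, among cells with at least 10 reads on the pair, its share ran from 36.1% to 72.7% around 49.2% in 88 D0 cells and from 42.2% to 66.7% around 53.2% in 87 D2 cells. In D1 the median share was 1.61%, and 48 of 50 cells lay at or under 20%, where no D0 or D2 cell lay. The other 2 D1 cells, with shares of 47.03% and 47.8%, were also the 2 D1 cells without a read of Hprt, while Hprt ran from 18.7 to 633 CPM in the 48. The gene and its copy together ran from 0 to 359 CPM around 127 in D0, from 25.1 to 752 around 314 in D1 and from 0 to 807 around 296 in D2. For both as a sum the ratio was 1.40 for D1, 2.63-fold, and 1.17 for D2, 2.26-fold, so Psmb5 stayed higher in both, but in D1 its ratio then lay below those of Psmc1, Psmd12 and Psma7, and the D1 excess over D2 was smaller than the entry of Psmb5 alone gives. Why the share differed between plates was not tested.

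**Figure D3:**
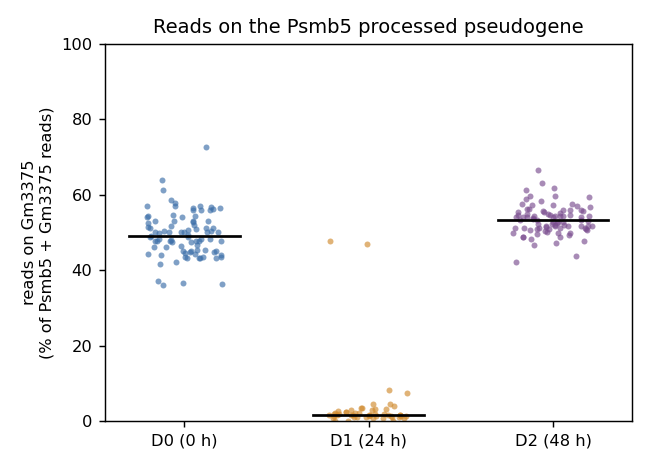
Share of the reads on Psmb5 and Gm3375 that were counted on Gm3375, 1 point a cell with at least 10 such reads, with the median as a line. D0 and D2 cells lie near 50%, 48 D1 cells lie near 0 and 2 D1 cells lie with the other plates.

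Another 7 members had processed pseudogenes at 95% identity or more over at least 200 bases. Only for Psma3 and Psma5 did these take over 5% of the summed CPM, 12.9%, 17.8% and 12.4% in D0, D1 and D2 for Psma3 and 12.8%, 11.9% and 12.99% for Psma5. Adding them moved the Psma3 ratio in D1 from 0.10 to 0.18 and that of Psma5 from 0.49 to 0.48.

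The immunoproteasome genes were low throughout, and Psmb10 alone was compared. Psmb10, which takes the place of Psmb7, ran from 0 to 86.4 CPM around a median of 6.30 in D0, from 0 to 252 around 41.99 in D1 and from 0 to 320.4 around 52.3 in D2. Its means were 10.8 ± 13.99, 60.5 ± 57.8 and 72.7 ± 71.5 CPM and its ratios 2.48 for D1 and 2.75 for D2, 5.58-fold and 6.71-fold, the highest of the 47 members compared in both comparisons. The ranges overlapped at 0, but 45 of 50 D1 cells and 81 of 93 D2 cells lay above the D0 median and 12 and 28 above the highest D0 cell. A read was found in 68.9% of D0 cells (exact Clopper-Pearson 95% interval 58.3% to 78.2%), in 94% of D1 cells (83.5% to 98.7%) and in 87.1% of D2 cells (78.5% to 93.2%), and in 53.3%, 90% and 86.02% after thinning. Such intervals cover counting error only, since the reads carry no molecular identifiers.

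Psmb8 and Psmb9, which take the places of Psmb5 and Psmb6, were near the limit of detection. Psmb8 was listed at 0 in all 90 D0 cells, which at a floor of 3 counts allows up to 3.33% of cells with a read. It was also at 0 in all 93 D2 cells, up to 3.23% by this floor, which lies below the exact upper limit. In D1 it had reads in 5 of 50 cells, up to 13.6 CPM. Psmb9 had reads in 3 D0, 15 D1 and 4 D2 cells, with highest values of 29.2, 32.7 and 47.99 CPM, and thinning left 2, 8 and 2 cells. It shares 212 bases with Tap1, its neighbour on chromosome 17, so a read of one may have been left out or counted on the other. Psmb10 thus differed from the other pair in level, being read in most cells. Per kilobase of transcript, Psmb10 made up 6.64% of Psmb10 and Psmb7 together for D0, 27.8% for D1 and 16.0% for D2. With lengths taken as the union of all exons these shares were 13.9%, 46.6% and 30.1%, in the same order.

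**Figure D4:**
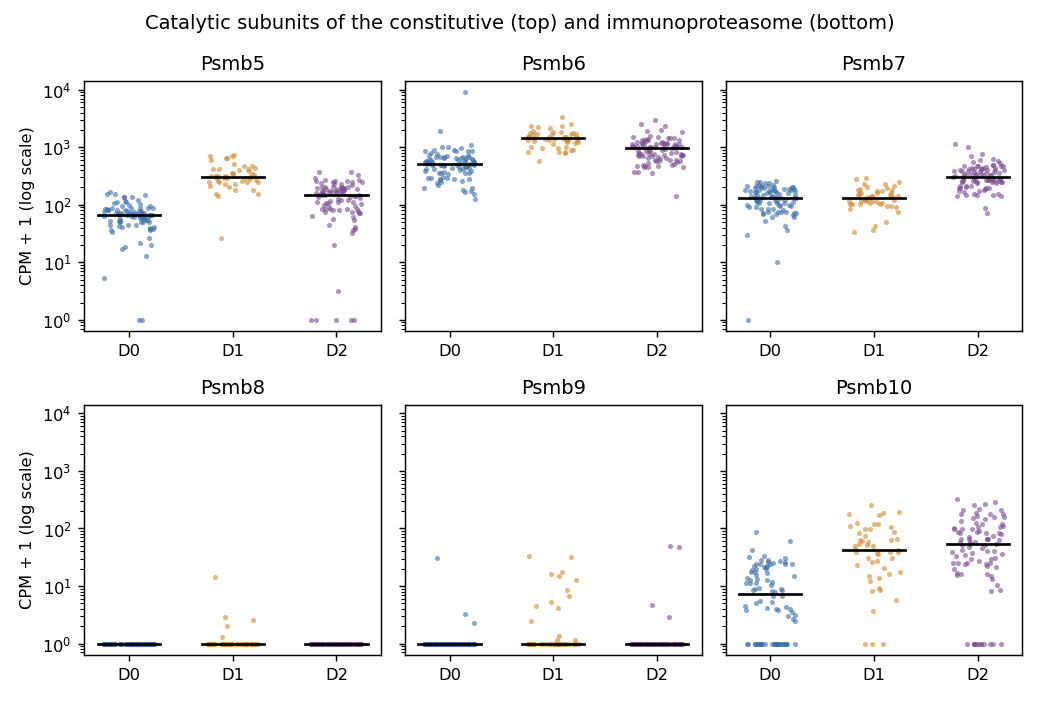
CPM + 1 on a log scale in each cell for the constitutive catalytic genes Psmb5, Psmb6 and Psmb7 (top) and the immunoproteasome genes Psmb8, Psmb9 and Psmb10 (bottom), with medians as lines. Psmb8 and Psmb9 are at 0 in most cells, and the median of Psmb10 lies at 6.30, 41.99 and 52.3 CPM.

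Of the tissue-specific 20S genes, Psmb11, known from the thymic cortex, was listed at 0 in every cell. By the floor of 3 counts this allows 3.33%, 6% and 3.23% of D0, D1 and D2 cells with a read, below the exact upper limits. Psma8, known from the testis, had means of 41.4 ± 99.98, 40.4 ± 37.9 and 60.5 ± 119.7 CPM and ratios of the means inside 1.5-fold, but its median was 15.3 CPM in D0 and 0.831 CPM in D2. Its reads came from 65 of 90, 47 of 50 and 47 of 93 cells.

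The ATPase ring of the 19S base pulls substrates into the core. Its 6 genes had summed ratios of 0.64 for D1 and 0.53 for D2, with 2 higher in D1 (Psmc1 and Psmc5) and 3 in D2 (Psmc1, Psmc2 and Psmc4). These shares were 33.3% and 50%, against 20.7% and 27.2% of all genes. At their lowest under the alternatives, the D2 ratios of Psmc1, Psmc2 and Psmc4 were 0.32, 0.42 and 0.45, all inside 1.5-fold. Psmc1, whose tail helps to open the gate of the core, ran from 22.8 to 949 CPM around a median of 140.2 in D0, from 81.9 to 1079 around 485 in D1 and from 4.13 to 1021 around 196 in D2. It had the highest ratio of the ring in D1, 1.60 with 49 of 50 cells above the D0 median, and a ratio of 0.60 in D2 with 57 of 93. Psmc4 had a lowest, median and highest cell of 2.24, 319.5 and 712 CPM in D0, 125, 435 and 897 CPM in D1 and 8.65, 435 and 1965 CPM in D2. It had the highest ratio of the ring in D2, 0.74, against 0.48 in D1. Psmc2 had the lowest ratio of the ring in D1, 0.05, against 0.67 in D2, and ran from 2.24 to 541 CPM around a median of 238 in D0, from 0 to 531 around 256 in D1 and from 0 to 1565 around 335 in D2. Psmc5 had the lowest in D2, 0.23, against 0.83 in D1, with a lowest, median and highest cell of 0, 324 and 787 CPM in D0, 226, 561 and 1377 CPM in D1 and 0, 288 and 2044 CPM in D2. By the median Psmc5 was thus lower in D2 than in D0. Psmc3 and Psmc6 lay inside 1.5-fold in both.

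The 11 other 19S genes form the lid, which removes ubiquitin, and the scaffold of the base. Of these, 1 (9.09%) was higher and 1 lower in D1, both below the 20.7% and 44% of all genes, and 4 (36.4%) were higher in D2 against 27.2% of all genes (Psmd3, Psmd6, Psmd12 and Psmd13). At their lowest under the alternatives, the D2 ratios of Psmd6 and Psmd13 were 0.51 and 0.27, inside 1.5-fold, while Psmd3 and Psmd12 kept their calls. Psmd12, a structural subunit of the lid, ran from 0 to 634 CPM around a median of 196 in D0, from 229 to 2045 around 553 in D1 and from 0 to 1292 around 359.7 in D2. All 50 D1 cells lay above the D0 median, and the ratios were 1.44 for D1 and 0.83 for D2. Psmd1, the large scaffold subunit of the base, was the only constitutive gene lower past 1.5-fold by the mean. It ran from 192 to 1305 CPM around a median of 519 in D0, from 2.86 to 683 around 300.5 in D1 and from 0 to 2169 around 503 in D2. In D1 6 of 50 cells lay above the D0 median, and the ratios were -0.83 for D1 and 0.02 for D2. The D1 ratio of Psmd1 came inside 1.5-fold with reads summed over cells and TMM factors, at -0.44, or median-of-ratios factors. Psmd2, the other large scaffold subunit, to which ubiquitin shuttles dock, ran from 0 to 1632 CPM around a median of 499 in D0, from 0 to 875 around 381 in D1 and from 0 to 3111 around 313 in D2. Its ratio of -0.56 in D1 lay just inside 1.5-fold, with 11 of 50 cells above the D0 median, and its ratio of -0.23 was the lowest of the list in D2. Under an alternative the D2 ratio of Psmd2 came down to -0.67, past 1.5-fold. Psmd3, a lid subunit, ran from 0 to 482 CPM around a median of 211 in D0, from 0 to 772 around 233 in D1 and from 0 to 1431 around 374 in D2. Its ratio in D2, 0.99, was the highest of the list, and 36 of 93 D2 cells lay above the highest D0 cell. Psmd4, a receptor of ubiquitin chains, had ratios of 0.45 for D1 and 0.40 for D2, and Psmd14, the enzyme that removes the chains, of 0.40 for D1 and 0.36 for D2, all inside 1.5-fold.

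Between genes, levels were compared per kilobase of transcript. The median over the 20S genes was 1.97 times that over the 19S genes in D0, 2.39 times in D1 and 2.85 times in D2 (2.40, 2.82 and 2.77 with the union of exons). Psmb6 was the highest constitutive gene in D0 and D1, at 781 and 1848 CPM per kilobase, and Psmb3 in D2, at 1250.4. The lowest was Psmb5 in D0 at 75.8, whose reads are shared with Gm3375, Psmd1 in D1 at 102 and Psmd11 in D2 at 149. These ends of the order depend on the length, since with the union of exons Psmb2 was highest in D0 and Psma5 in D2, and Psmb7 was lowest in D0 and D1.

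Assembly chaperones build the rings and leave before the particle is complete. Their 7 genes summed to 505 ± 167, 639.8 ± 222 and 1167 ± 534 CPM, with ratios of 0.34 for D1 and 1.21 for D2. Of the 7, 3 (42.9%) were higher in D1 and 6 (85.7%) in D2, against 20.7% and 27.2% of all genes. Psmg1, which with Psmg2 starts the alpha ring, ran from 0 to 301 CPM around a median of 117 in D0, from 0 to 566 around 219.8 in D1 and from 0 to 1713 around 279 in D2. Its ratios were 0.94 for D1 and 1.55 for D2, with 40 of 50 D1 cells and 79 of 93 D2 cells above the D0 median. Psmg2, its partner, ran from 0 to 517 CPM around a median of 106 in D0, from 0 to 199.6 around 79.8 in D1 and from 0 to 1215 around 269 in D2. Its ratios, -0.58 for D1 and 1.27 for D2, differed in sign, and the D1 value lay just inside 1.5-fold. Psmg4, the partner of Psmg3, had a lowest, median and highest cell of 0, 14.3 and 106 CPM in D0, 0, 45.96 and 293 CPM in D1 and 0, 16.9 and 148 CPM in D2. Its ratios were 1.61 for D1 and 0.41 for D2, and those of Psmg3 1.07 for D1 and 1.28 for D2. Under an alternative the D2 ratio of Psmg3 came down to 0.40, inside 1.5-fold. Among the chaperones of the 19S base, Psmd5 and Psmd9 were higher in D2 by the mean, 1.14 and 0.64, but lower by the median over cells, 98.8 against 136 CPM and 0.659 against 22.5 CPM. Reads of Psmd5 were found in 64 of 93 D2 cells against 86 of 90 D0 cells, so fewer cells with higher values carried the D2 mean. Psmd10 too had a D2 ratio of 0.75 by the mean but a median of 0 against 31.5 CPM, with reads in 35 of 93 D2 cells against 72 of 90 D0 cells.

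The activators open the core without the 19S cap, and they moved apart from each other. Psme1 and Psme2 form an interferon-inducible ring, Psme3 a nuclear one and Psme4 a single large dome. Psme4 ran from 0 to 1569 CPM around a median of 376 in D0, from 34.3 to 968 around 360.2 in D1 and from 0 to 1363 around 2.14 in D2. D1 cells lay inside the D0 range, but 10 of 93 D2 cells lay above the D0 median and 53 had a read, and its ratios were -0.16 for D1 and -1.96 for D2, the lowest of the members compared in D2. Psme2 ran from 0 to 171 CPM around a median of 18.8 in D0, from 0 to 257 around 57.9 in D1 and from 0 to 1549 around 21.5 in D2. Its ratios were 1.52 for D1 and 1.92 for D2, and the D2 mean of 99.5 CPM lay far above the D2 median, with 16 of 93 cells above the highest D0 cell. Psme2b, 99.4% identical to Psme2 over 794 bases, had a lowest, median and highest cell of 0, 5.20 and 35.4 CPM in D0, 0, 20.4 and 105 CPM in D1 and 0, 6.77 and 399 CPM in D2 and ratios of 1.95 for D1 and 1.88 for D2, and reads cannot be told apart between these genes where they are the same. Psme1, the partner of Psme2, had means of 26.2 ± 22.9, 58.2 ± 41.5 and 15.99 ± 44.7 CPM, higher in D1 (1.15) and lower in D2 (-0.71). Its D2 ratio reached -0.31 under an alternative, inside 1.5-fold, while its median was 0 in D2 against 18.6 CPM in D0. Psme3 ran from 0 to 324 CPM around a median of 63.7 in D0, from 0 to 215 around 56.4 in D1 and from 0 to 1439 around 1.54 in D2, and its ratios, -0.21 for D1 and -0.37 for D2, lay inside 1.5-fold. Psmf1, which encodes the regulator PI31, had a mean ratio of 1.38 in D2 but a median of 1.04 CPM against 38.7 in D0, with reads in 49 of 93 D2 cells. Psmc3ip had ratios of 1.14 for D1 and 0.58 for D2, with a D2 median of 2.75 CPM against 32.5 in D0, and shares 385 bases with its neighbour Mlx.

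Constitutive subunit genes were correlated weakly between cells in D0, and D2 lay near the level of other genes. Over the 465 pairs of the 31 genes, the Spearman correlation across the cells of a group had a median of 0.20 for D0, 0.12 for D1 and 0.03 for D2. Over all pairs of genes with at least 100 CPM it was 0.03, 0.04 and 0.02. The shares of pairs above 0 were 87.3%, 66.7% and 61.3%, against 57.6%, 55.5% and 56.5% for those other genes. With that limit at 10 CPM, the medians over other genes were 0.035, 0.0665 and 0.025 in D0, D1 and D2. The shares above 0 were then 61.7%, 63.97% and 59.1%. By share, D1 and D2 thus lay near the genes of at least 10 CPM, and D0 above them. Pairs within the 20S had medians of 0.24, 0.22 and 0.10, pairs within the 19S 0.18, 0.11 and 0.05, and pairs between them 0.19, 0.10 and 0.02. The summed 20S and summed 19S levels correlated at 0.70 across 90 D0 cells, 0.31 across 50 D1 cells and 0.19 across 93 D2 cells. All cells of a group share a plate and the same scaling by total reads, and the values are descriptions. D2 had the lowest value of the 3 under every alternative, but the order of D0 and D1 turned over without the filter on cells, on plate columns 1 to 6 and with Pearson correlations of log2(CPM + 10).

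Psmb3 and Psmb6 formed the closest pair in D0, at 0.64, and in D1, at 0.71, and Psmb1 and Psmb6 in D2, at 0.39, though thinning put Psma7 and Psmb6 first in D0, at 0.63. Psmb6 and Psmb3 also followed the sum of the other constitutive genes most closely in D0, at 0.76 and 0.73. Psmc6, an ATPase, stood apart from its complex in D0 and D1, with correlations of -0.05 and -0.33 with the sum of the others. In D1 the lowest pair lay at -0.59, against -0.30 in D0 and -0.31 in D2. The summed level of the 31 genes correlated with reads per cell at -0.28, -0.12 and -0.14, with detected genes at -0.32, -0.14 and -0.37 and with the mitochondrial share at -0.47, -0.28 and 0.16 in D0, D1 and D2. The part of depth in the correlations was not tested further than by thinning, which gave medians of 0.19, 0.12 and 0.03. The coefficient of variation of the summed level was 0.26, 0.14 and 0.19 in the same order, and the median over the single genes 0.50, 0.44 and 0.71, against 0.67, 0.64 and 1.31 for other genes of at least 100 CPM.

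**Figure D5:**
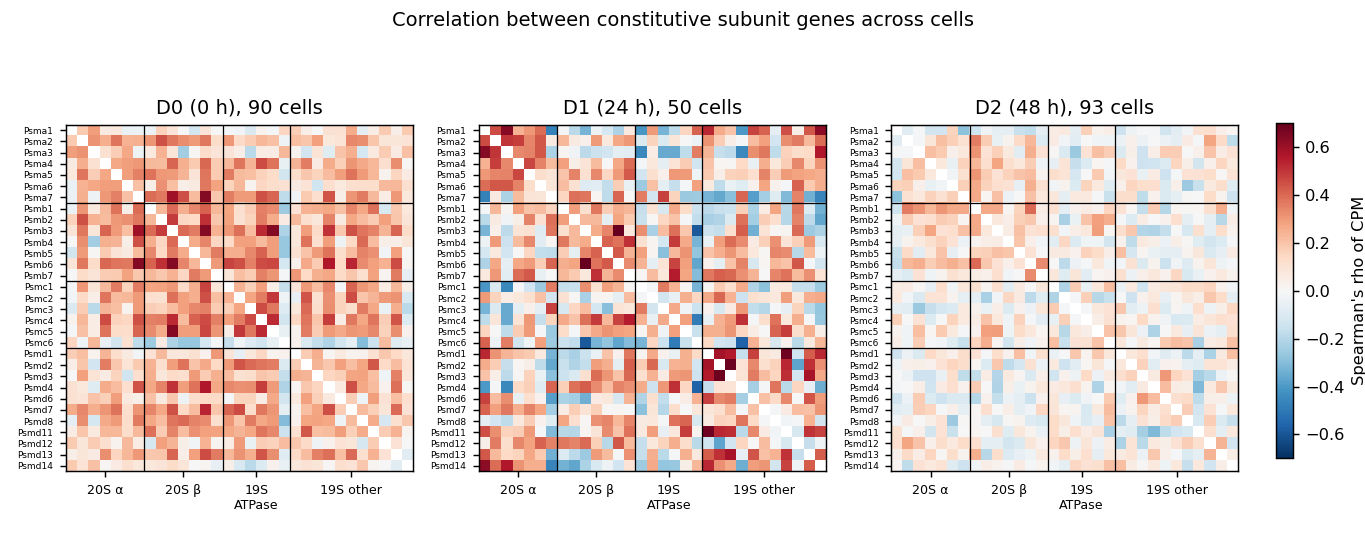
Spearman correlation of CPM across cells for each pair of the 31 constitutive subunit genes in D0, D1 and D2, from blue (negative) to red (positive), with lines between the 20S alpha, 20S beta, 19S ATPase and other 19S genes. D0 is mostly red, D1 mixes red and blue blocks and D2 is pale.

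Outside the members, other proteasome factors were called higher or lower about as often as all genes. Of 14 such genes, 3 (21.4%) were higher and 6 (42.9%) lower in D1 and as many in D2, against 20.7% and 44% of all genes in D1 and 27.2% and 39.5% in D2. Pomp, the maturation factor of the core, was higher, with means of 166 ± 89.1, 333 ± 120.4 and 438 ± 239 CPM and ratios of 1.01 for D1 and 1.40 for D2. Ddi2, the protease that releases the subunit regulator Nfe2l1, had ratios of -1.25 for D1 and -2.40 for D2, Ngly1, which strips sugars from Nfe2l1, -1.47 for D1 and 0.05 for D2, and Nfe2l1 itself -0.44 for D1 and -0.88 for D2. The D2 mean of Ngly1 rested on few cells, with reads in 5 of 93 D2 cells against 26 of 90 D0 cells. Zfand5, a stress-induced activator, had ratios of -1.71 for D1 and -0.69 for D2, Akirin2, which brings proteasomes into the nucleus, -1.36 for D1 and -1.13 for D2, and AI314180 -1.47 for D1 and -2.03 for D2.

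Of 15 ubiquitin and shuttling genes, 14 were compared, with 4 (28.6%) higher and 5 (35.7%) lower in D1 and 2 (14.3%) higher and 3 (21.4%) lower in D2, against 20.7% and 44% of all genes in D1 and 27.2% and 39.5% in D2. Ubb, a polyubiquitin gene, had ratios of 1.20 for D1 and 0.56 for D2 and Rps27a, which encodes ubiquitin fused to a ribosomal protein, 1.59 for D1 and 0.55 for D2. The shuttle genes Ubqln2 and Rad23b were lower, Ubqln2 at -2.31 in D1 and Rad23b at -0.65 in D1 and -2.85 in D2. Nploc4, a cofactor of the segregase Vcp, had a ratio of -1.82 in D2 and the chaperone gene Bag6 1.70. The median of Bag6 went the other way, from 55.1 CPM in D0 to 6.17 in D2, with reads in 61 of 93 D2 cells against 88 of 90 D0 cells.

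Of 10 antigen processing and interferon genes only 5 reached 10 CPM, with 3 higher and 1 lower in D1 and 2 (40%) higher and 2 (40%) lower in D2, where 27.2% and 39.5% of all genes were so called, against 20.7% and 44% in D1. H2-K1 and H2-D1, class I heavy chains that present peptides made by the proteasome, had ratios of 3.72 for D1 and 3.58 for D2 and of 1.80 for D1 and 2.20 for D2, from D0 means of 3.51 and 9.66 CPM. The D2 ratios rested on few high cells, since H2-K1 had reads in 20 of 93 D2 cells against 20 of 90 D0 cells and H2-D1 in 27 of 93 against 24 of 90, with medians of 0. B2m, their light chain, was lower, at -1.78 for D1 and -1.98 for D2. Tapbp, the peptide-loading factor tapasin, was lower in D2, at -1.91, and Irf1, an interferon-induced factor, was higher in D1, at 0.67. Tap1 and Tap2 were listed at 0 in D2.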

How the data were processed

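RNA from single cells labelled E14 was measured in 288 wells, 96 each of D0, D1 and D2. The authors aligned reads with HISAT2 to GRCm38, per the submitters' processing notes, and deposited the counts for each gene as whole numbers, not normalized. The counting tool and annotation are not given in the sources used here. A normalized table is named in the labels, but all 288 wells are listed with raw counts.

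Cells with over 200000 reads, over 2000 genes and a mitochondrial share under 0.15 were kept, 233 in all. Wells were sorted single cells, and no doublet caller was run. CPM used the total of each cell, means gave each cell equal weight, and a gene was compared at a mean of 10 CPM or more. No count model was run, since no label names a second culture of a time point. Values cover the spread over cells and, for shares, the draw of cells within a plate (exact Clopper-Pearson 95% intervals, and a floor of 3 counts). Shares were also computed after thinning each cell to 200000 reads.

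Every member may be named. Given in full are the catalytic and immunoproteasome genes and, in each list of at least 3 members, the highest and lowest ratio among members with reads in 50% or more of the cells of 1 group or the other. Of the companion lists, at most 4 genes past 1.5-fold a comparison are named, by size, with partner genes added. Values of 2 genes of these lists are not reported here. The members, lists, rules and alternatives were chosen with earlier results of these data known. Near-identical copies were found with BLAST 2.17.0 against GENCODE transcripts, at 95% identity over 200 bases. Lengths are those of the longest coding transcript. Promoters came from RefSeq, GRCm38.p6. The analysis ran on numpy 2.4.6, scipy 1.17.1, pandas 2.3.3 and matplotlib 3.10.9 under Python 3.11.15, and alternative scaling factors with edgeR 4.0.16 and DESeq2 1.42.0 in R 4.3.3. The scripts for ratios and correlations were tested on simulated counts.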

Additional observations from a re-analysis of the deposited data

How the results depend on the processing

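All 206 values of 8 sums under the alternatives (the constitutive, immunoproteasome, alpha, beta, ATPase, other 19S, chaperone and activator genes) kept their direction, as did 598 of 602 values of members whose ratio was past 1.5-fold. The 4 that turned over were Psmb4 in D1 without the filter on cells (-0.0042) and, by the median over cells in D2, Psmd5 (-0.46), Psmf1 (-5.22) and Psmd9 (-5.10). For 6 further values a group was at 0 and no ratio was given, and of these Psmd10 turned over by the median in D2. Size was less steady than direction, since 874 of all 1162 member values moved past the counting error of the ratio and 284 did not. No paired analysis was possible because no second culture of a time point and no replicate numbers are given.

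The log2 ratio of the summed constitutive genes over D0, 0.48 in D1 and 0.65 in D2, was 0.39 and 0.67 without the filter on cells, 0.52 and 0.69 with reads summed over cells, 0.73 and 0.96 with summed reads and TMM factors, and 0.63 and 0.91 with summed reads and median-of-ratios factors. It was 0.52 in D1 with totals that leave out abundant genes and 0.47 with thinning. It was 0.38 and 0.67 on plate columns 1 to 6, 0.57 and 0.63 on columns 7 to 12, 0.51 and 0.61 by the median, 0.50 and 0.66 with over 300000 reads and 3000 genes (226 cells), and 0.47 and 0.65 with pseudogene reads added. It was 0.46 in D1 without Psmb5 and 0.47 without the 2 D1 cells with a high Gm3375 share, both chosen after seeing the data like the pseudogene reads. Leaving out each cell gave 0.47 to 0.51 in D1 and 0.64 to 0.68 in D2. TMM factors move every gene by 0.21 in D1 and 0.28 in D2, and median-of-ratios factors by 0.10 and 0.23.

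The summed immunoproteasome genes, 2.51 in D1 and 2.72 in D2, gave 3.36 in D1 without the filter, 2.98 in D2 with summed reads, 2.64 and 3.26 with summed reads and TMM, 3.21 in D2 with summed reads and median-of-ratios, 2.62 in D2 thinned, 2.38 and 2.37 on columns 1 to 6, 2.65 and 3.07 on columns 7 to 12, and 2.82 and 3.18 by the median. Leaving out each cell gave 2.42 to 2.62 in D1 and 2.66 to 2.83 in D2.

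Members higher, 17 in D1 and 28 in D2, were 29 in D1 with summed reads and TMM (20 with summed reads alone), where the D2 number was 37 (31 with summed reads alone), against 15 in D2 at 2-fold and 17 in D2 by the median. Members lower, 1 in D1 and 2 in D2, were 0 in D1 and 1 in D2 at 2-fold and with summed reads and either set of factors, where edgeR and DESeq2 gave factors only and no test. With a pseudocount of 10 CPM the D2 number was 1. The D1 number was 3 without the filter, 2 with summed reads, 3 on columns 1 to 6, where the D2 number was 1, and 2 without the 2 D1 cells. By the median the D2 number was 9. The median correlation in D1, 0.12, was 0.40 without the filter. The cause of these shifts was not tested. Depth limits what can be said of Psmb8, Psmb9 and Psmb11. D2 cells held fewer genes than D0 cells at equal depth too.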
